A study of Homo sapiens with 9 samples.

Results

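The genes described here are 6 insulin-like growth factor binding proteins, IGFBP2 to IGFBP7, and the IGF receptors IGF1R and IGF2R. They were taken by gene symbol from the deposited read-count tables and are 8 of 24672 genes. No threshold on their values was applied, but the set was chosen with earlier results of these data known. In the low-count filter 7 of the 8 passed and were tested among 12806 genes, and IGFBP5 did not pass. EPC2 is a human esophageal epithelial cell line immortalised with TERT (telomerase reverse transcriptase). Cells with a non-silencing control and cells with SPINK7 silenced, 3 libraries each, were differentiated at the air-liquid interface (ALI). A further 3 libraries came from cells with the non-silencing control kept as an undifferentiated monolayer. All 9 libraries are of EPC2, so every group is 1 immortalised line, and no second silencing construct is described in the labels. The ALI cultures were grown in 0.09 mM calcium and moved to 1.8 mM on day 2. They were exposed to air on day 7 and harvested on day 14. Their medium was keratinocyte serum-free medium with 1 ng/mL EGF and 50 ug/mL bovine pituitary extract. The same EGF and extract are listed for the monolayers, whose calcium, harvest day and any air exposure are not given. The comparisons with the monolayer may therefore also span calcium and time in culture. SPINK7 encodes a serine protease inhibitor of squamous epithelium. Separate cultures are not named for the 3 libraries of any group, and p-values therefore reflect only how these libraries vary, possibly from handling alone.

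The IGF ligands signal through IGF1R, a receptor tyrosine kinase that recruits insulin receptor substrates and activates the PI3K and AKT kinases. IGF2R, also the cation-independent mannose phosphate receptor, has no kinase and carries IGF2 to lysosomes for breakdown. The secreted IGF binding proteins hold the ligands outside the cell, where they can keep them from the receptor or release them after cleavage by proteases, and several also act at the cell surface without a ligand. In squamous epithelium, growth of the basal layer is known to depend on IGF signalling.

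The sequences below are the promoters of IGFBP2, the 1 tested gene of the set that rose in differentiation, and of the 3 that fell most, IGFBP4, IGFBP6 and IGF1R. They are shown because these 4 genes carry the largest differences between the cultures. Each is the 250 bases before the start site in RefSeq (build GRCh38.p14), written 5′ to 3′ on the strand of the gene, with capitals marking GC boxes (GGGCGG or CCGCCC) and a TATA box (TATAAA or TTTATA).
IGFBP2: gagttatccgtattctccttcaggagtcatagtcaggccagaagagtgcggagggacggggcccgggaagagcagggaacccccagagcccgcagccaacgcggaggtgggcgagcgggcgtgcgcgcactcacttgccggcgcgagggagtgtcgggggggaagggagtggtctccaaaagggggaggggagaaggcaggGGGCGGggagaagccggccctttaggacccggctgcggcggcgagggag
IGFBP4: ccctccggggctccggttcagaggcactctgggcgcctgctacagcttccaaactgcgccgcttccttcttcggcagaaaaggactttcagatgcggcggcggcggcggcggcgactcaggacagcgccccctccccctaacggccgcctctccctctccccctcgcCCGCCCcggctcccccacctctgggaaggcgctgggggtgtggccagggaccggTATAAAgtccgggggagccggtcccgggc
IGFBP6: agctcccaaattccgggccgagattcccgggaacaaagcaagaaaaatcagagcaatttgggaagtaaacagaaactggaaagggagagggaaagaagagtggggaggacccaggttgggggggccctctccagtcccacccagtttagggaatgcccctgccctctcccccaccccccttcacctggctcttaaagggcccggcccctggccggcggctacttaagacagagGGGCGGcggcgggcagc
IGF1R: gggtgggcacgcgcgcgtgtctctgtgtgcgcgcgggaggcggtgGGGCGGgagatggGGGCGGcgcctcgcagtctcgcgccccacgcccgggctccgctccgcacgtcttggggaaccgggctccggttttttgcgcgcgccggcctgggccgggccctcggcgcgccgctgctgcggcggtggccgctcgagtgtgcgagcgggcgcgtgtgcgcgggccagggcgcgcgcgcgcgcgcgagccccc
The IGFBP2 window lies at chr2:216633170-216633419 (+) and holds 22 CpG and 1 GC box. The IGFBP4 window, at chr17:40443200-40443449 (+), holds 24 CpG, 1 GC box and 1 TATA box. The IGFBP6 window, at chr12:53097417-53097666 (+), holds 9 CpG and 1 GC box. The IGF1R window, at chr15:98648289-98648538 (+), holds 48 CpG and 2 GC boxes. Over 34788 RefSeq windows of the same length the median was 11 CpG, 42.6% held a GC box and 10.8% held a TATA box on either strand, so a GC box was common. IGFBP2 has 3 RefSeq entries, and the window is that of the entry nearest to the GENCODE start of that transcript, 25 bases away. For IGFBP6 the RefSeq start lies 222 bases from the GENCODE start. No match was found for IGFBP7, and the other 7 genes matched. No binding or methylation was measured here, so a match describes letters only.

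The libraries held between 7641960 and 14009746 counts. Levels are CPM (counts scaled by the TMM-adjusted library size). SPINK7 stood at 229, 261 and 225 CPM in the ALI control libraries with 20.9, 38.6 and 32.6 CPM in the silenced libraries, so it fell by 2.96 in log2 units, with an SE of 0.30 (adjusted p = 0.00246). It stood at 0.21 to 0.74 CPM in the monolayers. The ALI libraries numbered 2 of both arms stood apart on the second principal component (14% of the variance), at -78.5 and -25.5 against 14.3 to 55 for the other ALI libraries. In those libraries MKI67, a marker of cycling cells, was at 0.76 and 0.89 CPM, against 39.6 to 106 CPM in the other 4. All 10 epithelial markers had a mean of at least 1 CPM over the 9 libraries, but EPCAM had only 3 counts in monolayer libraries 2 and 3. In each ALI arm 7 of the 10 were higher than in the monolayers and 0 were lower. Of 8 fibroblast markers 1, COL1A1, had a mean of at least 1 CPM, and LUM had 0 counts. Of the leukocyte markers PTPRC and TYROBP had 0 counts, and the list of 8 summed to 54.0 to 71.5 CPM in ALI control, 66.9 to 95.4 CPM in ALI silenced and 16.6 to 29.7 CPM in monolayer libraries. CD68, a lysosomal protein not limited to leukocytes, made up most of it, and 1 of the 2 tested leukocyte markers was higher in each ALI arm than in the monolayers. Of 7 endothelial markers CLDN5 and EMCN had 0 counts, and VWF, the 1 tested, was higher in both ALI arms than in the monolayers (2.65 to 9.40 CPM in ALI control, 1.40 to 2.24 CPM in ALI silenced and 0 to 0.354 CPM in monolayer libraries). Of 6 melanocyte markers TYR and DCT had 0 counts, and the list reached at most 4.16 CPM. The part of these lists in the values of the IGF genes was not tested.

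Differentiation asks which transcripts differ between ALI control and monolayer cells that carry the same control construct. IGFBP2 rose 34.4-fold at the ALI, while IGFBP4 fell 21.9-fold and IGFBP6, IGF1R and IGF2R fell as well. The IGFBP2 ratio is imprecise in size, because the monolayers held only 20, 4 and 2 counts of it. IGFBP3 and IGFBP7 did not pass the test. In all, 1 of 7 genes was higher and 4 were lower, where 20.3% of all tested genes were called higher and 20.2% lower at an adjusted p under 0.05 (40.5% in either direction). The 3 ALI control values lay wholly above the monolayer values for 1 gene and wholly below them for 5, against 27.3% of all tested genes above, 29.9% below and 57.3% in either direction. The median log2 fold change of the 7 was -1.24, and that of all tested genes was 0.03. In bulk RNA fewer cells of a type and less RNA per cell cannot be told apart. A list of 10 suprabasal keratinocyte genes rose in 10 of 10 in the same comparison, from a summed 20.4 to 28.7 CPM in the monolayers to 7901 to 13860 CPM at the ALI, and its part in the values of the IGF genes was not tested.

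**Figure D1:**
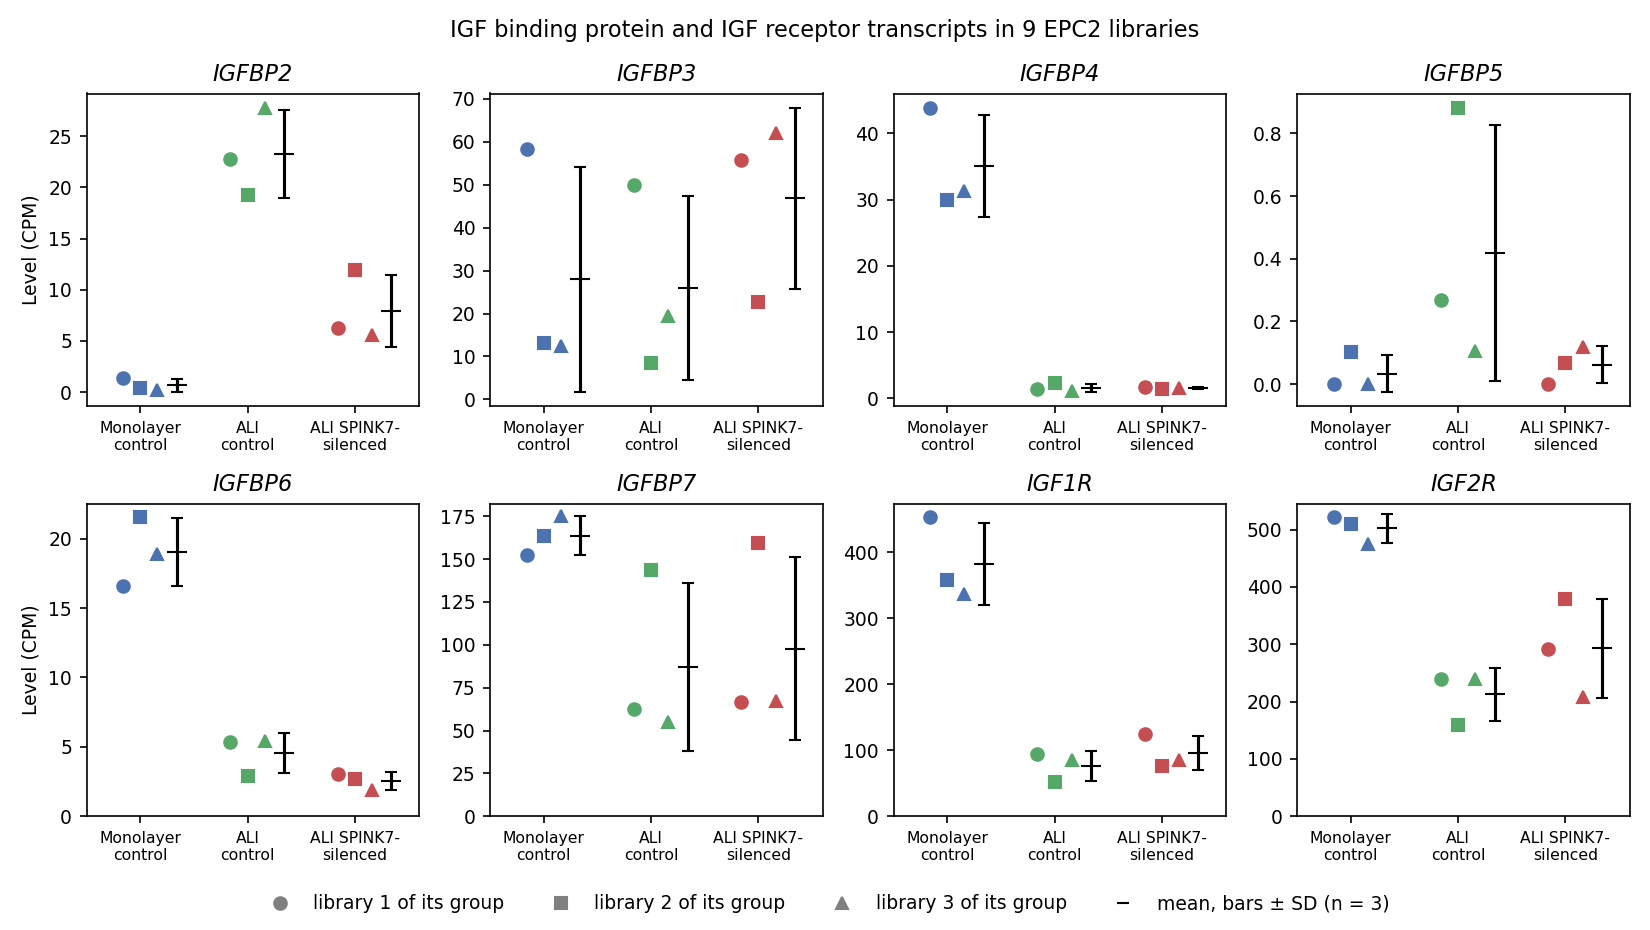
Levels (CPM, vertical axis, a scale of its own for each gene) of the 8 genes in the monolayer control, ALI control and ALI SPINK7-silenced libraries (horizontal axis). Symbols are the libraries numbered 1, 2 and 3 of each group, and the bars beside them give the mean ± SD (n = 3). IGFBP2 is highest in the ALI control libraries (19.3 to 27.8 CPM), IGFBP4, IGFBP6, IGF1R and IGF2R are highest in the monolayers, and the values of IGFBP3 overlap in all groups.

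IGFBP2 (chr2:217498127-217529158, + strand, hg19) encodes a binding protein with an RGD motif that can bind integrins. Its level was 22.8, 19.3 and 27.8 CPM in the ALI control libraries, 6.25, 11.9 and 5.61 CPM in the silenced libraries and 1.42, 0.40 and 0.21 CPM in the monolayers. The 3 groups did not overlap, with the control cultures at the ALI highest, the silenced cultures between and the monolayers lowest. ALI control exceeded monolayer by 4.97 on the log2 scale (SE 0.56, 95% interval 3.72 to 6.22, adjusted p = 0.000114). Monolayer library 1 held most of the few counts of its group. Without it the log2 fold change was 6.17 (adjusted p = 0.000127).

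IGFBP4 (chr17:38599676-38613982, + strand) encodes a binding protein that is the main substrate of the protease PAPPA. It was at 43.9, 29.9 and 31.3 CPM in the monolayers, at 1.47, 2.27 and 1.06 CPM in the ALI control libraries and at 1.77, 1.44 and 1.52 CPM in the silenced libraries. Every ALI library of either arm lay far below every monolayer library, and the 2 arms overlapped. The difference of ALI control from monolayer was -4.46 on the log2 scale (SE 0.32, 95% interval -5.17 to -3.74, adjusted p = 7.58e-06).

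IGFBP6 (chr12:53491436-53496128, + strand) encodes the binding protein that prefers IGF2 over IGF1. Its monolayer values were 16.6, 21.5 and 18.9 CPM. The ALI control values were 5.36, 2.90 and 5.39 CPM, and the silenced values were 3.08, 2.68 and 1.87 CPM. Again all 6 ALI libraries lay below the monolayers, while control library 2 fell within the range of the silenced arm. In ALI control against monolayer IGFBP6 fell by 2.06 on the log2 scale (SE 0.30, 95% interval -2.74 to -1.38, adjusted p = 0.000608).

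IGFBP7 (chr4:57897237-57976551, - strand) encodes a related secreted protein that binds IGFs weakly. It was at 152, 163 and 175 CPM in the monolayers. The ALI control libraries held 62.8, 144 and 55.3 CPM, and the silenced libraries held 66.6, 159 and 67.5 CPM. In both arms library 2 was the highest and near the monolayers. The monolayers lay above all control libraries but overlapped with the silenced ones. The log2 fold change in differentiation was -0.91 (SE 0.42, 95% interval -1.85 to 0.03, adjusted p = 0.111). Without ALI control library 2 it was -1.47 (adjusted p = 0.0105), and with library 2 of each arm left out it was also -1.47 (adjusted p = 1.32e-05), a fit in which 50.7% of all tested genes passed. It passed in 5 of 21 alternatives, among them the limma fits of log2 RPKM with pseudocounts of 1 and 0.1 (-1.21 and -1.22, adjusted p = 0.0321 each). The gene overlaps POLR2B on the opposite strand by 98 bases. POLR2B had 1389 to 2586 counts per library, and reads of the 2 genes in the shared bases cannot be told apart if strand was not used in counting.

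IGFBP3 (chr7:45951844-45960871, - strand) encodes the main carrier of IGFs in serum, made in skin by cycling basal keratinocytes. The ALI control libraries held 49.8, 8.57 and 19.4 CPM, the silenced libraries 55.6, 22.7 and 62.0 CPM, and the monolayers 58.2, 13.1 and 12.5 CPM. Libraries of 1 group differed more than the groups did, with library 2 the lowest of each ALI arm and library 1 the highest of the monolayers. The log2 fold change in differentiation was -0.12 (SE 0.73, 95% interval -1.73 to 1.50, adjusted p = 0.911). Leaving out monolayer library 1 turned it to 1.01 (adjusted p = 0.282), and leaving out ALI control library 1 gave -0.995 (adjusted p = 0.326). Leaving out ALI control library 2 or 3, or both ALI libraries numbered 2, also turned it above 0 (0.30, 0.06 and 0.28).

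The libraries with low and high IGFBP3 also differed in other genes. A list of 15 cell cycle genes summed to 295, 136 and 321 CPM in the ALI control libraries, 690, 83.6 and 668 CPM in the silenced libraries and 131, 182 and 176 CPM in the monolayers, so that the ALI libraries numbered 2, low in IGFBP3 and high in IGFBP7, were the lowest of their arms. Monolayer library 1, the highest of its group in IGFBP3, was lowest of the 3 monolayers in that list. It held 184 CPM of COL1A1, against 51.3 and 48.2 CPM in the other monolayers. The summed fibroblast list ranged from 50.1 to 186 CPM in the monolayers, 12.2 to 49.1 CPM in the control and 20.7 to 45.6 CPM in the silenced libraries. COL1A1 made up nearly all of this sum in every library, and LUM was at 0, so the sum adds little to the COL1A1 values. The part of these lists in the IGFBP3 and IGFBP7 values was not tested.

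IGFBP5 (chr2:217536828-217560272, - strand), the neighbour of IGFBP2 on chromosome 2 on the opposite strand, encodes a binding protein of the extracellular matrix. It had 2, 7 and 1 counts in the ALI control libraries, 0, 1 and 1 in the silenced libraries and 0, 1 and 0 in the monolayers. Most of its 13 counts came from ALI control library 2. Over the groups, ALI control exceeded silenced 6.8-fold (95% counting interval 1.45 to 63.8) and monolayer 13.4-fold (1.91 to 583). Without ALI control library 2 the ratios were 3.0 (0.343 to 35.9) and 5.92 (0.475 to 311), and both intervals then included 1. These intervals cover counting error only, not the spread between libraries. IGFBP1, a further binding protein that was named with the set, had 1 count in the 9 libraries together. A total of 3 counts, the upper limit that a count of 0 allows, corresponds to 0.206 to 0.402 CPM in these libraries.

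Of the receptors, IGF1R (chr15:99192761-99507759, + strand) was at 453, 358 and 336 CPM in the monolayers. In the ALI control libraries it was at 94.2, 51.2 and 84.7 CPM, and in the silenced libraries at 125, 75.6 and 85.9 CPM. All ALI libraries lay below all monolayers, and the 2 ALI arms overlapped. ALI control differed from monolayer by -2.32 on the log2 scale (SE 0.30, 95% interval -2.97 to -1.66, adjusted p = 0.000245).

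IGF2R (chr6:160390131-160527583, + strand) was at 521, 510 and 474 CPM in the monolayers. It was at 240, 159 and 239 CPM in the ALI control libraries and at 291, 379 and 208 CPM in the silenced libraries. The order was the same as for IGF1R, monolayer above both ALI arms, with a smaller distance. IGF2R fell by 1.24 on the log2 scale in ALI control against monolayer (SE 0.27, 95% interval -1.84 to -0.64, adjusted p = 0.00500). On the same strand the gene overlaps LOC729603, which had 10 to 50 counts per library.

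**Figure D2:**
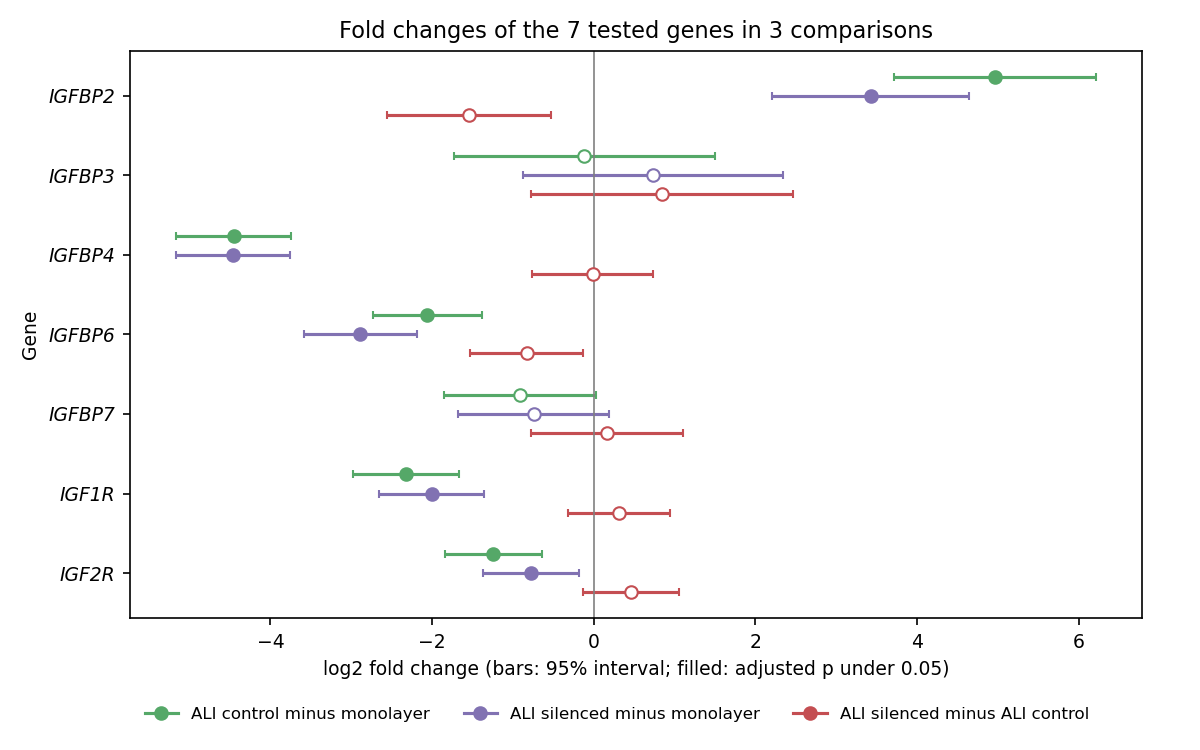
Log2 fold changes (horizontal axis) of the 7 tested genes (vertical axis) in ALI control minus monolayer, ALI silenced minus monolayer and ALI silenced minus ALI control. Bars are 95% intervals and filled symbols have an adjusted p under 0.05. IGFBP2 lies to the right in both comparisons with the monolayer (4.97 and 3.43) and IGFBP4 to the left (-4.46 and -4.47), and no symbol of the silencing comparison is filled.

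Silencing asks which transcripts differ between ALI cultures with SPINK7 silenced, where part of its transcript remained, and ALI cultures with the non-silencing control. By edgeR's quasi-likelihood test none of the 7 tested genes passed at an adjusted p under 0.05, where 0.929% of all tested genes did (0.226% higher and 0.703% lower). Before adjustment p was under 0.05 for 2 of them, IGFBP2 and IGFBP6, both lower, against 9.16% of all tested genes (5.07% lower), and the DESeq2 Wald test called 1, IGFBP2, where it called 2.87% of the genes it gave an adjusted p (1.93% lower). The values of the arms did not overlap for 1 gene, IGFBP2, lower in the silenced arm, against 6.35% of all tested genes lower, 5.75% higher and 12.1% in either direction. The median log2 fold change was 0.17 over the 7 genes and 0.01 over all tested genes.

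The IGFBP2 mean was 7.94 ± 3.48 CPM in the silenced libraries and 23.3 ± 4.28 CPM in the control libraries (SD, n = 3 each), which is 34.1% of the control mean. All 3 silenced libraries lay below all 3 controls. The log2 difference was -1.54 (SE 0.46, 95% interval -2.55 to -0.53, unadjusted p = 0.00681, adjusted p = 0.197). The call depended on the setting. DESeq2 gave -1.56 (adjusted p = 0.0314), the fit without both ALI libraries numbered 2 gave -2.09 (adjusted p = 0.00714), and the other 19 of 21 alternatives did not pass, with adjusted p up to 0.598. In that reduced fit 5.48% of all tested genes passed (3.31% lower). Beside IGFBP2, 7 of 10 suprabasal genes fell on silencing (a summed 1388 to 1897 CPM), while 4 of 10 interferon-stimulated genes passed as higher. The 10 interferon-stimulated genes summed to 3853, 1189 and 4020 CPM in the silenced and 485 to 677 CPM in the control libraries. The part of these lists in the IGFBP2 difference was not tested.

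IGFBP6 differed by -0.83 on the log2 scale between the arms (SE 0.31, 95% interval -1.53 to -0.13, adjusted p = 0.390), with means of 2.54 ± 0.616 CPM silenced and 4.55 ± 1.43 CPM control. It did not pass in any of the 21 alternatives (lowest adjusted p = 0.0635). IGFBP3 differed by 0.85 (95% interval -0.77 to 2.47, adjusted p = 0.754), which ran from 0.435 without ALI control library 2 to 1.73 without ALI control library 1 over the fits that left out 1 library, none of them past the threshold. IGFBP4 differed by -0.01 (95% interval -0.76 to 0.74, adjusted p = 0.995). IGFBP7 differed by 0.17 (95% interval -0.77 to 1.10, adjusted p = 0.916). The sign of IGFBP4 and of IGFBP7 turned in 7 and 3 of the 21 alternatives, none of them past the threshold. For the receptors, IGF1R differed by 0.32 (95% interval -0.31 to 0.95, adjusted p = 0.762). IGF2R differed by 0.46 (95% interval -0.13 to 1.05, adjusted p = 0.658). An adjusted p above the threshold does not show that the arms were alike.

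ALI silenced against monolayer compares groups that differ in both culture and construct, and it shares its groups with the comparisons above. Here 1 of 7 genes was higher and 4 were lower, where 31.7% of all tested genes passed (15.8% higher and 15.9% lower). The groups did not overlap for 1 higher and 4 lower genes, against 28.0% of all tested genes higher, 27.7% lower and 55.7% in either direction. IGFBP2 was higher by 3.43 (SE 0.55, adjusted p = 0.00117), or 4.62 without monolayer library 1 (adjusted p = 0.000644), set beside 4.97 for ALI control. IGFBP4 was lower in the silenced ALI cultures, at -4.47 (SE 0.32, adjusted p = 8.33e-06), beside -4.46. IGFBP6 stood at -2.89 (SE 0.32, adjusted p = 0.00012), beside -2.06. IGF1R stood at -2.001 (SE 0.29, adjusted p = 0.000691), beside -2.32.

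IGF2R was at -0.78 in that comparison (SE 0.27, adjusted p = 0.0479), beside -1.24 for ALI control. This call was at the threshold and was lost in 10 of 21 alternatives, with adjusted p up to 0.178 without ALI silenced library 3 (log2 fold change -0.59). Of the single libraries, its loss followed from leaving out ALI control 1 or 3 (0.0633 and 0.0561), ALI silenced 1 (0.107) and each monolayer (0.117, 0.125 and 0.101). IGFBP7 was at -0.74 (SE 0.42, adjusted p = 0.206) and passed without ALI silenced library 2 (-1.30, adjusted p = 0.0304) and in the fit that left out library 2 of each ALI arm (-1.28, adjusted p = 3.93e-05, with 49.9% of all tested genes past the threshold). IGFBP3 was at 0.73 (SE 0.72, adjusted p = 0.471), and at 1.84 without monolayer library 1 (adjusted p = 0.092). IGFBP2, IGFBP4, IGFBP6 and IGF1R passed in both comparisons with the monolayer, in the same direction, in all 21 alternatives, as did IGF2R in ALI control against monolayer.

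Levels of different genes were compared on the deposited RPKM, which is per length of transcript. IGFBP7 was the most abundant binding protein in every group, with 67.8 ± 15.7% of the summed RPKM of IGFBP2 to IGFBP7 in ALI control, 73.5 ± 12.01% in ALI silenced and 75.8 ± 5.74% in monolayer libraries (mean ± SD, n = 3). Behind it the order differed. In the monolayers IGFBP6 (10.3 ± 1.59%) and IGFBP4 (8.13 ± 1.64%) came next, followed by IGFBP3 (5.50 ± 5.05%) and IGFBP2 (0.245 ± 0.229%). These shares of IGFBP6, IGFBP4 and IGFBP3 were within each other's spread.

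In ALI control libraries IGFBP2 took 16.4, 9.08 and 23.6% of the summed RPKM, and IGFBP3 followed with 10.3 ± 8.77%. The 2 shares were within each other's spread. IGFBP6 (4.83 ± 2.49%) overlapped with IGFBP3, and IGFBP4 (0.645 ± 0.0622%) was lowest of the tested genes. In ALI silenced libraries IGFBP3 came next to IGFBP7 with 18.5 ± 11.5%, followed by IGFBP2 at 4.81 ± 0.413%, IGFBP6 at 2.48 ± 0.982% and IGFBP4 at 0.681 ± 0.255%. The 3 silenced libraries were close in their IGFBP2 share (4.35 to 5.16%) and below all 3 controls (9.08 to 23.6%), while their IGFBP3 share ran from 5.33 to 26.2%.

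**Figure D3:**
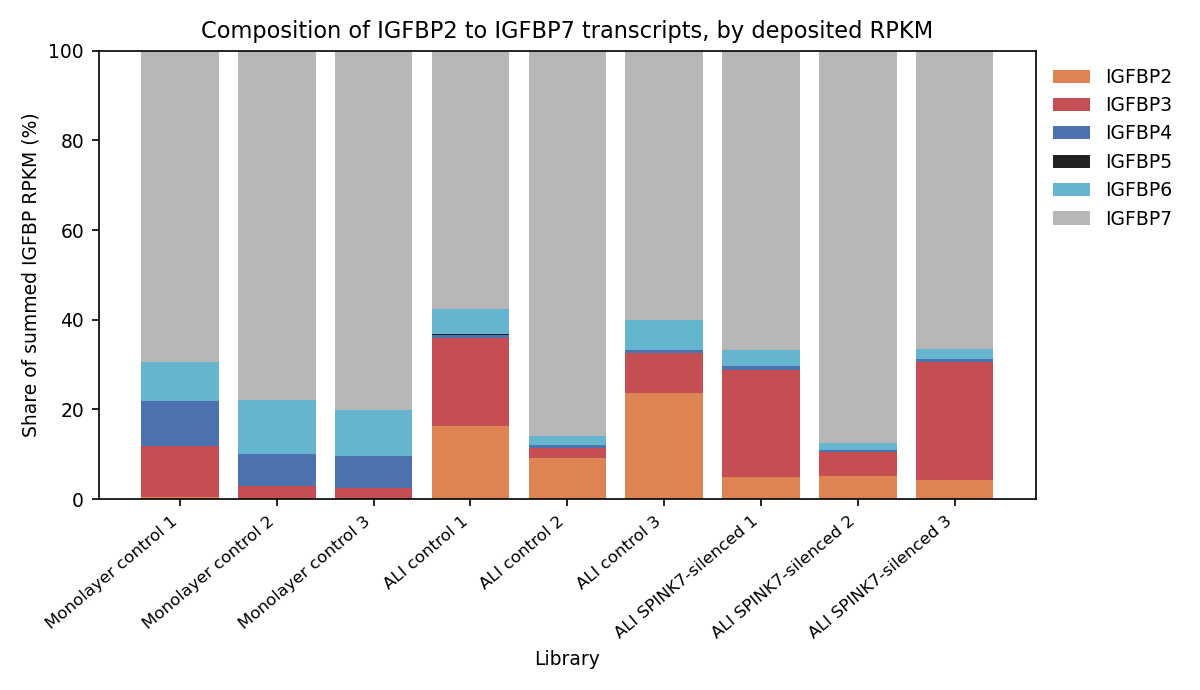
Share of each binding protein in the summed RPKM of IGFBP2 to IGFBP7 (percent, vertical axis) in each of the 9 libraries (horizontal axis); each bar sums to 100. IGFBP7 takes the largest share in every library, IGFBP4 is visible mainly in the monolayers, and IGFBP2 reaches 23.6% in ALI control library 3. The IGFBP6 share is 8.79 to 11.96% in the monolayers, 2.02 to 6.76% in ALI control and 1.71 to 3.59% in ALI silenced libraries.

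The summed RPKM of the 6 binding proteins was 173 ± 4.61 in the monolayers, 85.7 ± 20.5 in ALI control and 98.7 ± 37.9 in ALI silenced libraries. All ALI libraries (68.5 to 108 in control and 75.7 to 142 in silenced) lay below the monolayers (168 to 176). IGF2R exceeded IGF1R per length in every library. The ratio of their RPKM was 1.64 ± 0.191 in the monolayers, 3.49 ± 0.348 in ALI control and 4.02 ± 1.89 in ALI silenced libraries. The lowest ALI ratio, 2.88, was above the highest monolayer ratio, 1.76. These sums and ratios are descriptions and were not tested.

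Of the rest of the IGF pathway, a list of 48 genes held 38 that were tested. In differentiation 1 of the 38 rose and 13 fell, where 20.3% of all tested genes rose and 20.2% fell, with a median log2 fold change of -0.51 against 0.03 over all tested genes. None of the 38 passed on silencing (0.929% of all tested genes did). Of the 38, 2 had an unadjusted p under 0.05, against 9.16% of all tested genes, and DESeq2 called 1, against 2.87%. Their median log2 fold change on silencing was 0.28, against 0.01 over all tested genes. In ALI silenced against monolayer 2 were higher and 11 lower, where 15.8% of all tested genes were higher and 15.9% lower, with a median of -0.17 against 0.04. The 1 that rose in differentiation was RICTOR, a subunit of the mTOR complex that phosphorylates AKT, at 0.97 (adjusted p = 0.037). Of the single libraries left out, its call was lost without ALI control 2 (0.50, adjusted p = 0.0959), ALI silenced 3 (adjusted p = 0.0523) and each monolayer (0.0602, 0.116 and 0.0972), and without ALI control library 3 the number of rising genes was 3.

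The ligand IGF2, which acts through IGF1R and is cleared by IGF2R, had 185, 14 and 11 counts in the monolayers, 0, 0 and 1 in the ALI control libraries and 5, 2 and 3 in the silenced libraries. Monolayer library 1, the highest of its group in IGFBP3 and COL1A1, held most of them. IGF2 is 1 of the 13 genes that fell in differentiation. In summed counts over summed library sizes, the monolayers exceeded ALI control 156-fold (95% counting interval 27.7 to 6200, for counting error only). Without monolayer library 1 this was 32.2-fold (5.28 to 1320). The differentiation call was lost on log2(RPKM + 1) (adjusted p = 0.0721). The call against ALI silenced was lost in 4 alternatives, without monolayer library 1 (adjusted p = 0.0587), without ALI silenced library 3 (0.0522), with library 2 of each ALI arm left out (0.0717) and on log2(RPKM + 1) (0.118). The ligand IGF1 had 1 count in all 9 libraries, and the insulin gene is listed only in a row shared with the INS-IGF2 readthrough.

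Among reported surface partners of the binding proteins, 3 of 4 fell in differentiation, beside 20.2% of all tested genes. LRP1, an endocytic receptor reported to bind IGFBP3, was at 23.3, 10.1 and 27.4 CPM in the ALI control libraries and at 576, 420 and 375 CPM in the monolayers, a log2 fold change of -4.49 (adjusted p = 6.98e-05). The 3 ALI values lay far below the 3 monolayer values. Those of ITGA5 and ITGB1, the subunits of the fibronectin receptor, also lay below the monolayers, at a smaller distance. ITGA5 fell by 2.71 (adjusted p = 0.00045) and ITGB1 by 1.27 (adjusted p = 0.00178), both on the log2 scale. TMEM219, a reported IGFBP3 receptor, was at 0.39 (adjusted p = 0.179).

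Of 4 tested proteases that cleave binding proteins and their inhibitors, 1 fell in differentiation, a share near the 20.2% of all tested genes. HTRA1, a secreted serine protease that cleaves IGFBP5 among other substrates, was at 106, 195 and 111 CPM in the ALI control libraries and 425, 395 and 406 CPM in the monolayers (log2 fold change -1.58, adjusted p = 0.00322). PAPPA, the protease of IGFBP4, was at -0.38 (adjusted p = 0.461) in differentiation. On silencing PAPPA was at 1.21, 0.96 and 2.11 CPM against 4.82, 3.15 and 4.23 CPM in control, without overlap. The test gave -1.53 (SE 0.42, adjusted p = 0.164), and PAPPA was the pathway gene that DESeq2 called (adjusted p = 0.0409). PAPPA2 and STC2, a related protease and an inhibitor of PAPPA, were highest in library 2 of each ALI arm. In the silenced arm these were 37.8 and 143 CPM, against 3.86 to 4.76 and 14.8 to 20.1 CPM in the other libraries. In the control arm they were 9.83 and 64.6 CPM, against 2.54 to 3.75 and 13.3 to 23.8 CPM.

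Of 26 tested adaptors and signalling genes, 7 fell in differentiation and 1 rose, beside 20.2% and 20.3% of all tested genes, so that the share that fell was near that of all genes. INPP5D and INPPL1, lipid phosphatases that act on the product of PI3K, fell by 1.94 (adjusted p = 8.77e-05) and by 1.78 (adjusted p = 0.00152) on the log2 scale. GRB10, an adaptor that restrains IGF1R and the insulin receptor, fell by 1.62 (adjusted p = 0.00365). PIK3R2, a regulatory subunit of PI3K, fell by 1.32 (adjusted p = 0.0123). AKT1, a kinase activated through PI3K, fell by 1.22 (adjusted p = 0.013), and IRS2, an insulin receptor substrate, fell by 1.11 (adjusted p = 0.00633). Among the IGF2 mRNA-binding proteins, IGF2BP2 fell by 0.81 (adjusted p = 0.0372).

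**Figure D4:**
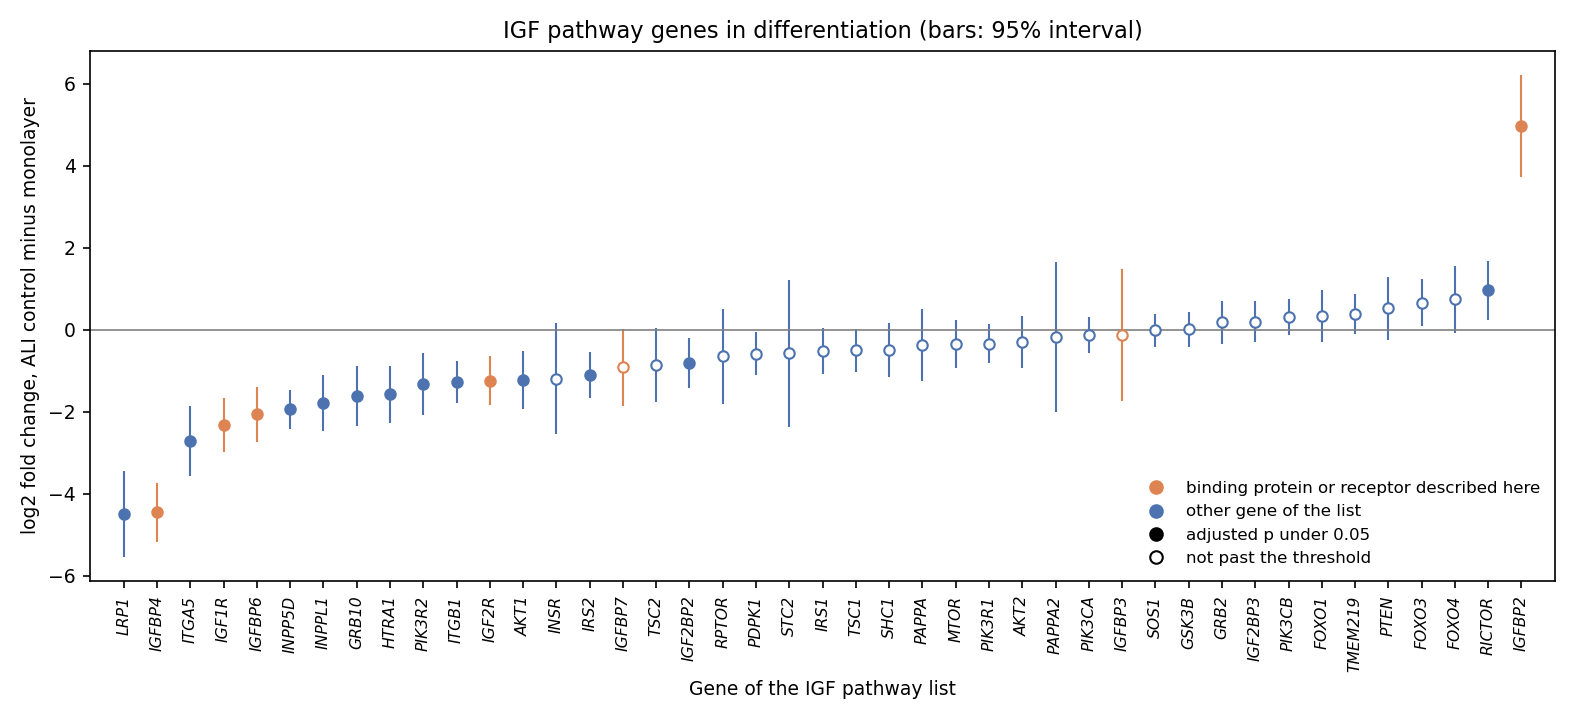
Log2 fold changes of ALI control minus monolayer (vertical axis) for tested genes of the IGF pathway list (horizontal axis, in order of fold change), with 95% intervals; orange marks the binding proteins and receptors described, blue the other genes, and filled symbols have an adjusted p under 0.05. IGF2 is left out because it had 1 count in the ALI control libraries. IGFBP2 (4.97) lies apart at the right end and LRP1 (-4.49) and IGFBP4 (-4.46) at the left end.

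For each tested gene, the 3 genes with the most alike pattern over the 9 libraries were taken by Pearson correlation of log2 CPM, among 10558 genes with a mean of at least 5 CPM. The 9 libraries fall into 3 groups, so that genes with like group means correlate highly, and no p is given. For IGFBP2 they were PPP2R2C (r = 0.995), FAM84A (0.990) and TPRG1 (0.988). IGFBP4 was most alike to SOX12 (0.993) and PDGFA (0.992). For IGFBP6 they were NT5DC2 (0.994), CHD6 and NUAK1 (0.992 each). IGF1R was nearest to ODZ4 (0.995), C20orf112 (0.994) and CHST3 (0.993), and IGF2R to REEP4 (0.991), SOCS7 (0.990) and SH3PXD2B (0.985). The nearest genes of IGFBP7 were SLC1A4 (0.977), PXK and STRADB (0.974 each). IGFBP3 had the lowest of these values, with LOC730755 (0.944), POU3F1 (0.937) and RIMKLB (0.920). No gene of the IGF pathway list was among these genes.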

How the data were processed

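Stranded libraries were made from polyA-selected RNA, per the labels. The submitters' processing notes name hg19, STAR 2.4.2a, Bowtie and MACS2 without roles. Which program counted the reads, on which annotation and with or without strand, is not given in the sources used here. Each deposited table held 29800 transcript rows with whole-number read counts, which the authors left unnormalized, and RPKM values made by the authors. Some ALI tables are named for another day or number than the labels, and the labels were used. Rows of the same symbol and chromosome were summed. Rows that name several genes numbered 511 and held 0.41 to 0.55% of the counts of a library.

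The test was the quasi-likelihood F-test of edgeR 4.0.16, run on counts under R 4.3.3 (TMM scaling, filterByExpr, robust fit, all 9 libraries, 6 residual degrees of freedom), with Benjamini-Hochberg adjustment over 12806 genes within each of 3 contrasts and a threshold of 0.05. SE values come from the F statistic, and 95% intervals use the total degrees of freedom of the test. The procedure was also run on simulated counts in which all genes had the same dispersion and no library stood apart. That run therefore does not show how it performs on the spread between these libraries. Precision is limited by 3 libraries a group, and by depth for IGFBP5 and IGF2. Monolayer libraries 2 and 3 differed by little more than sampling noise (chi-square per degree of freedom 1.92, against 17.0 to 161 for other pairs) and were kept apart. The 21 alternatives covered scaling, filters, tools (DESeq2 1.42.0, limma 3.58.1), RPKM with pseudocounts 1 and 0.1, the fit to 2 groups, the replicate number and left-out libraries. The count ratios of IGFBP5 and IGF2 without 1 library were added after seeing the data. Named were the 8 genes, IGFBP1, up to 12 pathway genes past the threshold with the largest change per contrast, and the genes of likest pattern. ITGB1, AKT1, IRS2, IGF2BP2, RICTOR, PAPPA, PAPPA2, STC2 and TMEM219 were named after their values were seen. Some genes that the rule takes or the lists hold are not reported here. The genes and lists were chosen with earlier results of these data known.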

Additional observations from a re-analysis of the deposited data

How the results depend on the processing

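Over 21 alternatives no count of called IGF binding proteins and receptors changed in the comparisons with the monolayer by over 1.5 times, and on silencing the count lower went from 0 to 1 (IGFBP2) with DESeq2 and without both ALI libraries numbered 2. For the other pathway genes, the count lower on silencing was 0 and became 1 with DESeq2. The count higher in differentiation (1) was 2 without a filter, 3 with DESeq2, 0 with limma-voom, with either RPKM pseudocount and with monolayers 2 and 3 summed, 4 without both ALI libraries numbered 2, and 0 to 3 when 1 library was left out. In ALI silenced against monolayer the count higher (2) was 5 in the fit of 2 groups, 0 with monolayers summed and 0 to 5 with 1 library left out, and the count lower (11) was 7 to 14 with 1 left out.

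Over all genes, 29 were higher on silencing. This became 45 without a filter, 135 with DESeq2, 52 and 46 with RPKM pseudocounts 1 and 0.1, 5 in the fit of 2 groups, 9 with monolayers summed, 280 without both ALI libraries numbered 2, and 3 to 92 with 1 library left out. The 90 lower genes became 280, 54 and 428 with DESeq2, with 2 groups and without both libraries numbered 2, and 25 to 147 with 1 left out. In ALI silenced against monolayer the 2023 higher genes became 3372 without both libraries numbered 2, 1310 with monolayers summed and 1284 to 2976 with 1 left out, and the 2035 lower ones became 3087 without both and 1276 to 2767 with 1 left out.

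Signs turned only for values that passed in no setting. On silencing, IGFBP4 was 0.04 with limma-voom, 0.051 and 0.14 with RPKM pseudocounts 1 and 0.1, 0.33 without ALI control 2, 0.045 and 0.007 without ALI silenced 2 and 3, and 0.41 without both ALI libraries numbered 2, with -0.249 to 0.331 over fits without 1 library. IGFBP7 was -0.02 and -0.075 without ALI control 1 and 3 and -0.39 without ALI silenced 2 (-0.39 to 0.732 over fits without 1 library). GRB10 was -0.157 without ALI silenced 2 (up to 0.592), PIK3R2 was -0.001 without ALI silenced 1 (up to 0.56), and HTRA1 was 0.005 and 0.004 with the RPKM pseudocounts, 0.225 without ALI control 2, and 0.009 and 0.038 without ALI silenced 1 and 3 (down to -0.469). In differentiation IGFBP3 turned to 0.297 and 0.056 without ALI control 2 and 3, 1.01 without monolayer 1 (-0.995 to 1.01 over fits without 1 library) and 0.284 without both libraries numbered 2. The cause was not tested. With RPKM and a pseudocount of 1, which understates changes of low genes, IGFBP2 and IGFBP4 in differentiation were 3.31 and -3.26.

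Libraries share replicate numbers across groups, and same-numbered ALI libraries deviated together for numbers 1 and 2 (correlations 0.495 and 0.577) but not 3 (-0.006). ALI silenced 1 and ALI control 3, of unlike numbers, had a correlation of 0.637. The numbers were therefore not taken to pair the samples. With the replicate block, 51 genes in place of 29 were higher on silencing, IGFBP7 passed in both comparisons with the monolayer (-1.08, adjusted p = 0.0164, and -0.92, adjusted p = 0.040), IGF2R in ALI silenced against monolayer did not (-0.79, adjusted p = 0.0630), and IGFBP2 on silencing stayed at adjusted p = 0.183. DESeq2 gave no adjusted p for IGF2.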
